A study of Mus musculus with 8 samples.

Results

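The miR-148 and miR-152 family comprises 3 mouse miRNA genes, Mir148a, Mir148b and Mir152, whose 3p arms carry the same seed, the stretch from base 2 to base 8 that pairs with target mRNAs. All 6 arms of the 3 hairpins were followed, whatever their values, among the 434 mature miRNAs counted. A read was counted for an arm when its first 20 bases were identical to it. Reads of 5 of the 6 arms were found, and 3 arms, all of them 3p, passed the filter on low values (at least 10 counts per 1000000 miRNA reads, CPM, in at least 3 libraries).

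NIH-3T3, an immortalised line of fibroblasts from mouse embryos, was kept in medium with 10% DCS, and its small RNAs were sequenced in 8 libraries from 2 experiments to profile miRNAs in arrested and dividing cells. In the serum experiment, cells deprived of serum for 48 h were given 20% serum and collected after 0 h (labelled G0), 12 h (G1), 16 h (S), 20 h (G2/M) and 24 h (G1). The contact experiment began with cells at 12% confluency, with 1 library from day 0, labelled asynchronous, and 1 each from days 3 and 5, labelled G0. For group comparisons, the 3 libraries labelled G0 were set against the other 5, and no condition has replicates.

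A miRNA hairpin is cut by Drosha and Dicer into a short duplex, and usually one arm, the guide, is kept in an Argonaute protein while the other is lost. Argonaute then uses the seed to find sites in the 3′ untranslated regions of mRNAs and represses them, so miRNAs with one seed share most predicted targets. The 3′ end of the loaded guide can be trimmed or can receive added bases that the gene does not encode, most often U or A. The best known targets of this family are the DNA methyltransferases, DNMT1 for miR-148a and miR-152 and DNMT3B for miR-148 in human cells.

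The 3p sequences are shown first because they hold the seed, in capitals, and the few positions at which the members differ. All are RefSeq sequences on build GRCm38.p6, written 5′ to 3′.
miR-148a-3p: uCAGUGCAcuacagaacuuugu
miR-148b-3p: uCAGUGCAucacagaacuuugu
miR-152-3p: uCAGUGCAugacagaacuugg
Of the 1679 mature names in that RefSeq table, these 3 are the only ones with this seed. Counted from 1 at the 5′ end, miR-148a-3p and miR-148b-3p differ by C9U and U10C, with the base of miR-148a-3p first. miR-148a-3p and miR-152-3p differ by C9U, U10G and U20G, and miR-148b-3p and miR-152-3p by C10G and U20G. Every pair thus differed at 2 or 3 of the first 20 bases, so that the counting rule kept the members apart.

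The 5p arms, the strands mostly discarded, are less alike and are shown with their own seed in capitals.
miR-148a-5p: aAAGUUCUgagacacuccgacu
miR-148b-5p: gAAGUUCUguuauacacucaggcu
miR-152-5p: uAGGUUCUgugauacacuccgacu
The 5p seed was the same in miR-148a and miR-148b and differed in miR-152 by A3G, with the base of the miR-148 arms first. Over the 22 positions compared, without gaps, miR-148a-5p differed from miR-148b-5p at 9. The arms are 22 and 24 nt long, and an alignment with a gap could lower this count.

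The hairpins are given with both arms in capitals, since the bases just after the 3p arm decide which longer reads are templated.
Mir148a: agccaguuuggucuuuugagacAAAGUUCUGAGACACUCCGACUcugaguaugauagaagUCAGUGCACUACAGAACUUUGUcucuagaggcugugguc
Mir148b: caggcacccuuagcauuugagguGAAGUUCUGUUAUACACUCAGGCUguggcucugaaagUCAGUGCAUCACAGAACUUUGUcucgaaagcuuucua
Mir152: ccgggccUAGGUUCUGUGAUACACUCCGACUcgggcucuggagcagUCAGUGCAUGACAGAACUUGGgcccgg
Mir148a lies at chr6:51269812-51269910 on the minus strand and overlaps no other annotated gene. Mir148b lies at chr15:103285125-103285221 on the plus strand, in intron 1 of Copz1, on the same strand. Mir152 lies at chr11:96850393-96850465 on the plus strand, in intron 1 of Copz2, also on the same strand. Copz1 and Copz2 are paralogs that encode the zeta subunits of the COPI vesicle coat, so these miRNA genes sit at matching places in a gene pair. No hairpin overlapped an exon.

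Depth set the precision. Libraries held 707202 to 8512472 reads, of which 137585 to 892528 were counted for a miRNA. Reads taken to be marker oligonucleotides made up 62.4% to 95.1% of the serum libraries, against 0.00424% to 0.0392% of the contact libraries. Inserts under 16 nt made up 27.9% of the serum 0 h library and at most 1.83% of any other. A set of 6 fibroblast or mesenchymal miRNAs was present in every library, at 10.3% to 32.5% of miRNA reads in the G0 libraries and 6.04% to 25.7% in the others. Of 22 markers of other cell types, 14 were counted, and together they took 0.0502% to 0.463% of miRNA reads in the G0 libraries and 0.0833% to 0.124% in the others. The highest of these was serum 0 h, where epithelial markers reached 0.288% and blood markers 0.045%. Levels below are TMM-scaled CPM, a CPM corrected for the make-up of the library. With no molecular identifiers, the 95% intervals cover counting error only. A level is relative to the other miRNAs of its library, so it does not tell a fall of a miRNA from a rise of others. Nor does it tell fewer cells with the miRNA apart from less of it per cell.

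miR-152-3p was the most abundant member in all 8 libraries. Over the 8 libraries it gave 7339 reads and ranked 46 of 434 by mean level, at 2426 CPM. Its level was 2353 CPM at serum 0 h, 1487 at 12 h, 2867 at 16 h, 1810 at 20 h and 1612 at 24 h. In the contact experiment its level was 1657 CPM on day 0, 1460 on day 3 and 6164 on day 5. On this scale day 5 was above every other library and day 3 was the lowest. As a share of miRNA reads, contact day 0 was the lowest, at 0.0935%, with day 3 at 0.118%, and day 5, at 0.344%, was close to serum 0 h at 0.338% and 16 h at 0.335%. The 4 lowest libraries by TMM-scaled level (contact day 3, serum 12 h and 24 h, contact day 0) had overlapping intervals, from 1337 CPM at the lower end for contact day 3.

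miR-148b-3p gave 1753 reads and ranked 121, with a mean of 571 CPM. Its level was 384 CPM at serum 0 h, 635 at 12 h, 774 at 16 h, 675 at 20 h and 482 at 24 h. On contact days 0, 3 and 5 its level was 608, 186 and 822 CPM. It was lower at serum 0 h than in any released library, and on contact day 3 it was lower than anywhere else. At serum 0 h the interval, 321 to 456 CPM, overlapped that at 24 h, 386 to 594 CPM.

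miR-148a-3p was the least abundant 3p arm, with 633 reads, rank 195 and a mean of 188 CPM. Its level was 372 CPM at serum 0 h, 256 at 12 h, 279 at 16 h, 245 at 20 h and 77.6 at 24 h. On contact days 0, 3 and 5 it was 32.6, 16.9 and 229 CPM, from 6, 6 and 59 reads. It had the widest range of the 3 arms, with 21.97-fold between its highest and lowest library, against 4.41-fold for miR-148b-3p and 4.22-fold for miR-152-3p, but its low end rests on 6 reads a library. At serum 0 h its level and that of miR-148b-3p had overlapping intervals, with 310 to 443 CPM for miR-148a-3p.

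**Figure D1:**
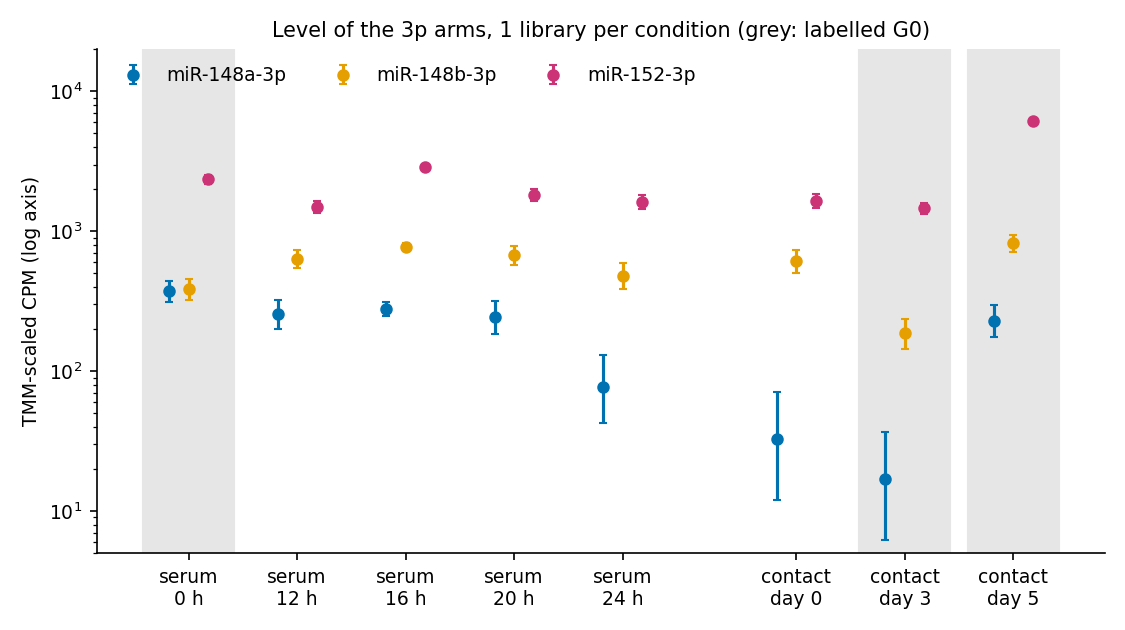
Level of the 3 arms in each library (log axis, TMM-scaled CPM; bars are 95% exact binomial intervals, counting error only; grey marks libraries labelled G0). miR-152-3p lay above the other arms in every library, at 6164 CPM on contact day 5 and between 1460 and 2867 CPM elsewhere, while miR-148a-3p was lowest on contact day 3, at 16.9 CPM.

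Together the 3p arms took 0.446%, 0.330%, 0.457%, 0.352% and 0.285% of miRNA reads at serum 0, 12, 16, 20 and 24 h. On contact days 0, 3 and 5 they took 0.130%, 0.134% and 0.402%. The contact libraries of days 0 and 3 were therefore the lowest of the 8, and day 5 lay among the serum libraries. The share has no scaling in it, and TMM factors of 1.17 to 1.43 in the serum libraries and 0.558 to 0.808 in the contact libraries raise contact levels relative to serum levels.

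In the make-up of the family, miR-148b-3p held a smaller share in all 3 G0 libraries. miR-148b-3p made up 12.3% of the 3p reads of the family in the serum 0 h library (10.4% to 14.5%), 11.2% on contact day 3 (8.77% to 14.0%) and 11.4% on contact day 5 (9.99% to 12.9%). In the other libraries its share was 26.7% at serum 12 h, 19.7% at 16 h, 24.7% at 20 h, 22.2% at 24 h and 26.5% on contact day 0. The G0 libraries lay together below the other 5, in both experiments, and the closest interval of the others, at 24 h, was 18.2% to 26.6%. The gap was also there under the 3 other ways of counting reads, with 8.35% to 12.8% in the G0 libraries and 19.6% to 23.5% in the others where the whole insert had to match the hairpin. Among 74 miRNAs in 24 seed families with at least 2 tested members, 18.9% had shares of their family that did not overlap between the same groups, in either direction. The separation was noticed in the data and was not tested. A smaller share need not be a lower level. On contact day 5 the level of miR-148b-3p, at 822 CPM, was higher than in any other library. The shares of the 3 arms are parts of a whole, so those of miR-148b-3p and miR-152-3p are not independent.

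miR-152-3p made up 75.7%, 87.8% and 85.4% of the family's reads in the serum 0 h, contact day 3 and contact day 5 libraries. In the other libraries its share was 62.5%, 73.1%, 66.3% and 74.2% at serum 12, 16, 20 and 24 h, and 72.1% on contact day 0. The G0 libraries were the 3 highest, but at serum 0 h the interval, 73.0% to 78.2%, included the share at 24 h, and the groups overlapped where the whole insert had to match the hairpin. For miR-148a-3p every serum library lay above every contact library, though the interval at 24 h, 1.97% to 5.92%, took in contact day 5. It made up 12.0%, 10.7%, 7.13%, 8.96% and 3.57% of the family's reads at serum 0, 12, 16, 20 and 24 h, and 1.42%, 1.02% and 3.17% on contact days 0, 3 and 5.

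**Figure D2:**
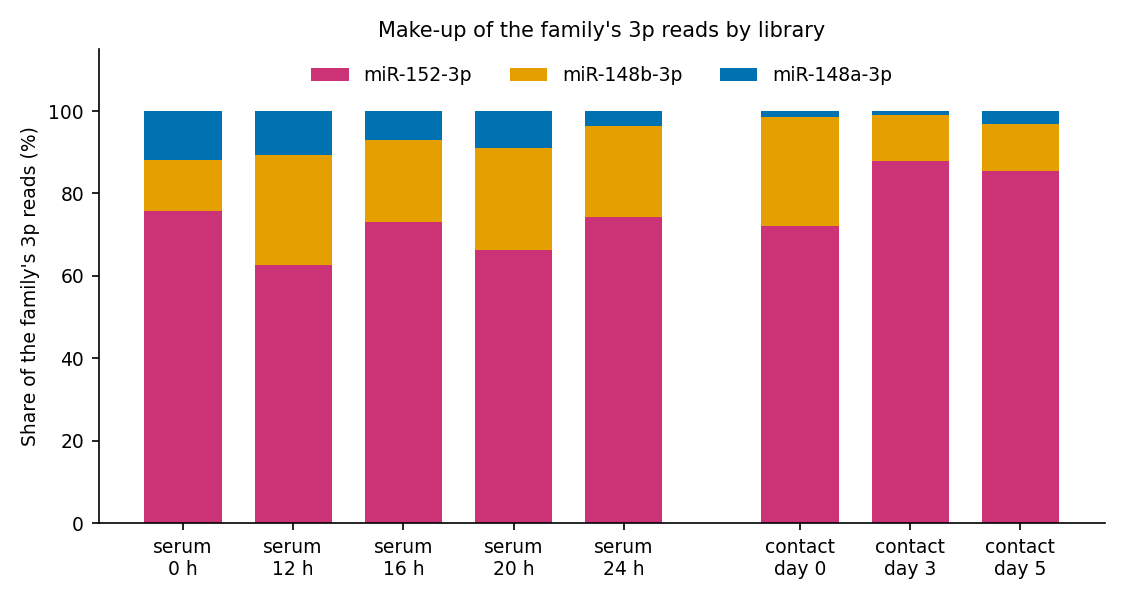
Share of the family's 3p reads from each member in each library (percent, stacked to 100). The band of miR-148b-3p was 11.2% to 12.3% in the serum 0 h and contact day 3 and 5 libraries and 19.7% to 26.7% in the other 5, and the band of miR-148a-3p was at most 3.17% in the contact libraries.

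The first comparison asked whether any arm of the family differed in level with the G0 label. edgeR's quasi-likelihood test, with the experiment as a term, called 3 of 347 miRNAs (0.865%) at a Benjamini-Hochberg adjusted p under 0.05, and none of the 3 family arms was among them. miR-152-3p averaged 3326 CPM in the G0 libraries and 1887 CPM in the others, a log2 fold change of 0.70 (SE 0.61, edgeR adjusted p = 0.656). miR-148a-3p averaged 206 CPM in the G0 libraries and 178 CPM in the others, with a log2 fold change of 1.26 (SE 1.07, edgeR adjusted p = 0.652). Without the experiment term, which sets each G0 library against its own experiment, that fold change was 0.20. miR-148b-3p averaged 464 CPM in the G0 libraries and 635 CPM in the others, with a log2 fold change of -0.53 (SE 0.63, edgeR adjusted p = 0.748). For each of the 3 arms the 2 groups overlapped in level, where 8.36% of the 347 miRNAs did not overlap in either direction. The spread between libraries in this test takes in times and phases.

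Single libraries decided the sizes. Without contact day 5, the log2 fold change of miR-152-3p was 0.06, and that of miR-148a-3p was 0.23. Without serum 0 h, they were 1.41 for miR-152-3p and 2.07 for miR-148a-3p. For miR-148b-3p the log2 fold change was -1.13 without contact day 5 and -0.06 without serum 0 h. No arm passed the threshold with any 1 library left out. The edgeR test of the difference between the experiments, as serum minus contact, gave -0.93 log2 units for miR-152-3p (adjusted p = 0.887), -1.11 for miR-148a-3p (adjusted p = 0.901) and -0.47 for miR-148b-3p (adjusted p = 0.910). It called 0 of 347 miRNAs, where 14 had an unadjusted p under 0.05. With scaling by DESeq2 size factors or by total miRNA reads the same edgeR test again called 0, with 13 and 19 at an unadjusted p under 0.05.

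The second comparison set contact days 3 and 5 against day 0. A miRNA was counted when it had at least 100 reads in 1 of the 3 libraries and was at least 2-fold on one side of day 0 on both days, with intervals that excluded 1. Of 167 miRNAs with enough reads, 17.4% were counted as higher and 12.6% as lower, and neither miR-152-3p nor miR-148b-3p was among them. These were 29 higher and 21 lower miRNAs, but 40 higher and 6 lower when scaled by total miRNA reads, and lower numbered 10 when 18 bases were counted and 12 when the whole insert had to match the hairpin. miR-148a-3p, with at most 59 reads, did not have enough. With 1 library a condition, these ratios have no replicate check.

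Day 3 and day 5 were unlike each other for all 3 arms. miR-152-3p on day 3 was 0.881 times its day 0 level (0.763 to 1.02) and on day 5 it was 3.72 times that level (3.29 to 4.22). The day 3 ratio was 1.26 when scaled by total miRNA reads, so its direction depends on the scaling. miR-148b-3p on day 3 was 0.306 times its day 0 level (0.222 to 0.419), and on day 5 it was 1.35 times that level (1.07 to 1.72). With DESeq2 size factors its day 5 ratio was 1.10 (0.868 to 1.39), so that the interval included 1. miR-148a-3p on day 3 was 0.520 times its day 0 level, but with 6 reads in each library the interval was 0.139 to 1.94. On day 5 it was 7.02 times the day 0 level (3.04 to 19.9). Between the G0 libraries themselves, day 5 was 13.5 times day 3 for miR-148a-3p (5.85 to 38.3). Day 5 was 4.41 times day 3 for miR-148b-3p (3.33 to 5.91) and 4.22 times for miR-152-3p (3.82 to 4.67). Scaled by total miRNA reads, the ratios were smaller, at 9.32, 3.04 and 2.91 in the same order. The fibroblast or mesenchymal miRNAs together, like the family, were much higher on day 5 than on day 3, at 6.04% of miRNA reads on day 0, 10.3% on day 3 and 32.5% on day 5, and their part in the day 5 levels of the family was not tested.

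The third comparison set serum 0 h against the 4 libraries taken after serum was added back. Counted by the same rule against each of the 4, 4% of 225 miRNAs were higher at 0 h and 6.22% were lower, and none of the 3 arms was counted in either direction. miR-148a-3p at 0 h was 1.46 times its 12 h level, 1.33 times its 16 h level, 1.52 times its 20 h level and 4.80 times its 24 h level (2.76 to 9.03). miR-148b-3p ran the other way, at 0.604, 0.496, 0.569 and 0.797 times its level at 12, 16, 20 and 24 h. The 24 h interval of 0.603 to 1.06 included 1, but with DESeq2 size factors that ratio was 0.746 (0.564 to 0.990). Where the whole insert had to match the hairpin, the ratios at 12, 16, 20 and 24 h were 0.947, 0.661, 0.744 and 0.981, closer to 1. miR-152-3p at 0 h was 1.58, 1.30 and 1.46 times its level at 12, 20 and 24 h, and 0.821 times its level at 16 h. The 16 h ratio of miR-152-3p was 1.01 when scaled by total miRNA reads and 1.06 when the whole insert had to match the hairpin. Under that whole-insert rule its ratios at 12, 20 and 24 h were 2.14, 1.48 and 1.61.

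**Figure D3:**
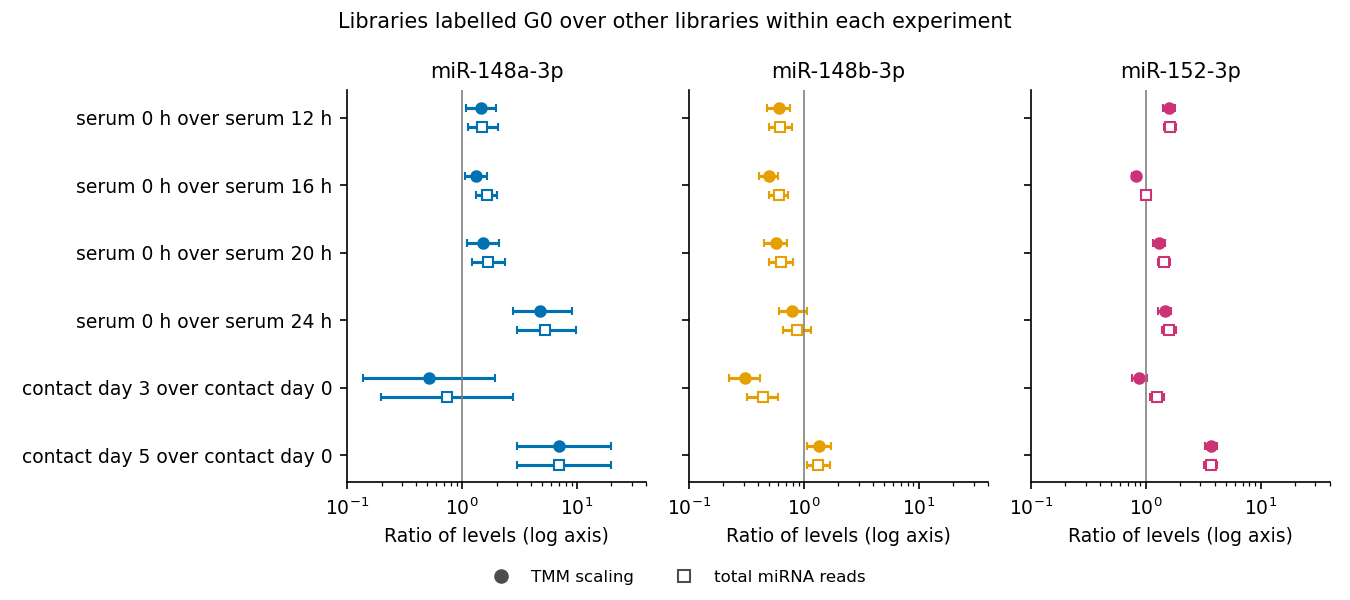
Ratio of each G0 library to each other library of its experiment (log axis; bars are 95% exact conditional binomial intervals; filled circles TMM scaling, open squares total miRNA reads; the vertical line marks 1). miR-148b-3p lay left of 1 in all 4 serum ratios and on contact day 3, while the day 5 ratios were 7.02, 1.35 and 3.72 for miR-148a-3p, miR-148b-3p and miR-152-3p.

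Among the 4 released libraries, 69.4% of 222 miRNAs were at least 2-fold apart between their highest and lowest library, and of the 3 arms miR-148a-3p was. It was 3.60-fold higher at 16 h than at 24 h (2.11 to 6.67), from 291 and 14 reads. miR-148b-3p was 1.61-fold higher at 16 h than at 24 h, and miR-152-3p was 1.93-fold higher at 16 h than at 12 h. Both G1 libraries, at 24 h and 12 h, differed for miR-148a-3p, with 77.6 CPM at 24 h and 256 CPM at 12 h, a ratio of 0.303 (0.158 to 0.543). For miR-148b-3p the same ratio was 0.759 (0.580 to 0.985), though 0.845 (0.646 to 1.10) with DESeq2 size factors. For miR-152-3p it was 1.08 (0.930 to 1.26), so that the interval included 1. With DESeq2 size factors it was 1.21 (1.04 to 1.41), which excluded 1.

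The 5p arms were all but absent. miR-148a-5p had 0 reads in all 8 libraries, which at 16 h, the deepest, allows a share of up to 1.03% of the reads of the gene. miR-148b-5p had 42 reads, 37 of them at 16 h. These were 7 distinct inserts of 22 to 28 nt, with 14 reads of 22 nt and 13 of 24 nt, and made up 4.39% of miR-148b reads there (3.11% to 5.999%). On contact days 0, 3 and 5 there were 1, 2 and 2 reads, and at serum 0, 12, 20 and 24 h there were 0, which allows shares of up to 2.29%, 1.68%, 1.88% and 3.45%. The interval at 16 h therefore lay above the limits at 0, 12 and 20 h and took in the limit at 24 h. It also overlapped the interval of each contact library, the widest being 0.358% to 10.2% on day 3.

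miR-152-5p had 2 reads, both of 24 nt and both on contact day 5, or 0.126% of miR-152 reads there. A further 11 reads at serum 0 h, all of 19 nt, began 1 base inside the RefSeq start of the 5p arm and so fell outside the count. With them the 5p share at 0 h would be 1.64% of the reads that matched the hairpin. All 11 were one insert, in the library in which 27.9% of reads held inserts under 16 nt.

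The 5′ ends, which fix the seed, hardly varied. Of reads that matched the hairpin, 99.5% of miR-148a-3p, 99.7% of miR-148b-3p and 99.1% of miR-152-3p began at the RefSeq base. The 3′ ends were where the members differed. The commonest inserts are shown as sequenced, with T for U, and capitals mark a base that the hairpin does not have at that place.
miR-148a-3p at the RefSeq end: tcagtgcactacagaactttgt
miR-148a-3p with 1 templated base more: tcagtgcactacagaactttgtc
miR-148b-3p at the RefSeq end: tcagtgcatcacagaactttgt
miR-148b-3p with an added T: tcagtgcatcacagaactttgtT
miR-152-3p at the RefSeq end: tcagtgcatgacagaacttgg
miR-152-3p with an added T: tcagtgcatgacagaacttggT
miR-152-3p with an added A: tcagtgcatgacagaacttggA
The RefSeq end made up 75.8% of miR-148a-3p reads, 64.3% of miR-148b-3p reads and 64.9% of miR-152-3p reads. The second insert of miR-148b-3p, with 1 added U, had 463 reads or 26.4%, and that of miR-152-3p had 1320 reads or 17.99%. The second insert of miR-148a-3p was templated and had 18.2% of its reads, most of them from serum 0 h. Without that library it had 13 of 506 reads, or 2.57%, and the RefSeq end had 90.1%. Added A after the RefSeq end of miR-152-3p gave 363 reads or 4.95%.

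An untemplated 3′ base was thus common in miR-148b-3p, with 599 of 1753 reads (34.2%), and in miR-152-3p, with 2235 of 7339 reads (30.5%), and rare in miR-148a-3p, with 18 of 633 reads (2.84%). The first added base was U in 92.7% of the untemplated reads of miR-148b-3p and in 78.4% of those of miR-152-3p. miR-148a-3p and miR-148b-3p end in the same 12 bases, up to and including the last base of the RefSeq sequence, and both are followed in their hairpins by the same 3 bases. The contrast between them held in each library with more than 14 reads of miR-148a-3p, where its untemplated share was 0% to 5.08%, while that of miR-148b-3p was never under 12.2%.

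Against other miRNAs the U additions of both were high. Over miRNAs with at least 100 reads in a library, the median share of reads with U as the first added base was 0% to 3.82%. The first added U is not seen in a miRNA whose hairpin continues with U, which can lower this median and affect the ranks. The hairpins of the family continue with C or G after the RefSeq end. miR-148b-3p ranked 39 of 149 at serum 0 h, with 11.5%, and between 2 and 10 in the other 5 libraries where it had 100 reads, with 30.6% to 43.0%. Its highest place was on contact day 0, with 36.6% and rank 2 of 112. miR-152-3p had 100 reads in all 8 libraries, with shares of 13.7% to 29.2% and ranks of 10 to 22. miR-148a-3p could be ranked in 2 libraries, with 0% at serum 0 h and 2.75% at 16 h, both under the median of the library.

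**Figure D4:**
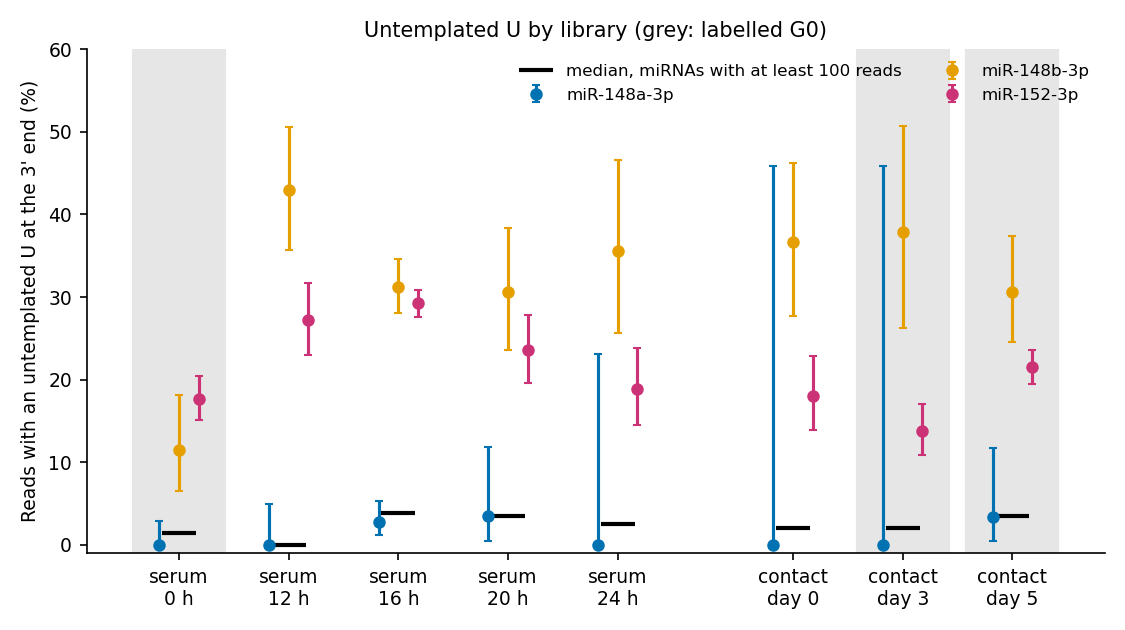
Share of 3p reads with U as the first untemplated base (percent; bars are 95% exact binomial intervals; black lines are the median of miRNAs with at least 100 reads in the library; grey marks libraries labelled G0). miR-148b-3p and miR-152-3p lay above the median in all 8 libraries, with the lowest share of miR-148b-3p, 11.5%, at serum 0 h.

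Serum 0 h lay at one end of the range of 3′ ends for all 3 arms. miR-148b-3p had untemplated bases in 12.2% of reads at 0 h (7.15% to 19.1%), against 43.6%, 34.2%, 36.3% and 35.6% at 12, 16, 20 and 24 h. Its share was 38.4%, 42.4% and 32.5% on contact days 0, 3 and 5. miR-152-3p had 17.9% at 0 h (15.3% to 20.8%), against 38.9%, 36.4%, 31.5% and 33.0% at 12, 16, 20 and 24 h, and 25.6%, 20.5% and 26.9% on contact days 0, 3 and 5. Serum 0 h was the lowest library for both arms, but for miR-152-3p its interval overlapped that of contact day 3 (17.1% to 24.2%). Across all miRNAs with 100 reads the median untemplated share was also lowest at serum 0 h, at 10.1%, against 13.7% to 18.8% in the other libraries.

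miR-148a-3p at serum 0 h was mostly 1 templated base longer than elsewhere. The 23-nt insert ending in the next hairpin base made up 80.3% of 127 reads (72.3% to 86.8%). At serum 12, 16, 20 and 24 h it made up 0 of 72, 8 of 291, 0 of 58 and 3 of 14 reads. In the contact libraries it made up 1 of 6 reads on day 0, 0 of 6 on day 3 and 1 of 59 on day 5. The interval at 0 h lay above that of each other library, and the widest of those, 0.421% to 64.1% on contact day 0, came from 6 reads. The number of distinct inserts was small throughout, at 3 for these 127 reads and 1 for the 72 reads at 12 h, and copies of 1 molecule cannot be told from separate molecules. The 0 h library was also the one with the most short inserts and the most epithelial and blood marker reads, and the part of these in its 3′ ends was not tested.

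**Figure D5:**
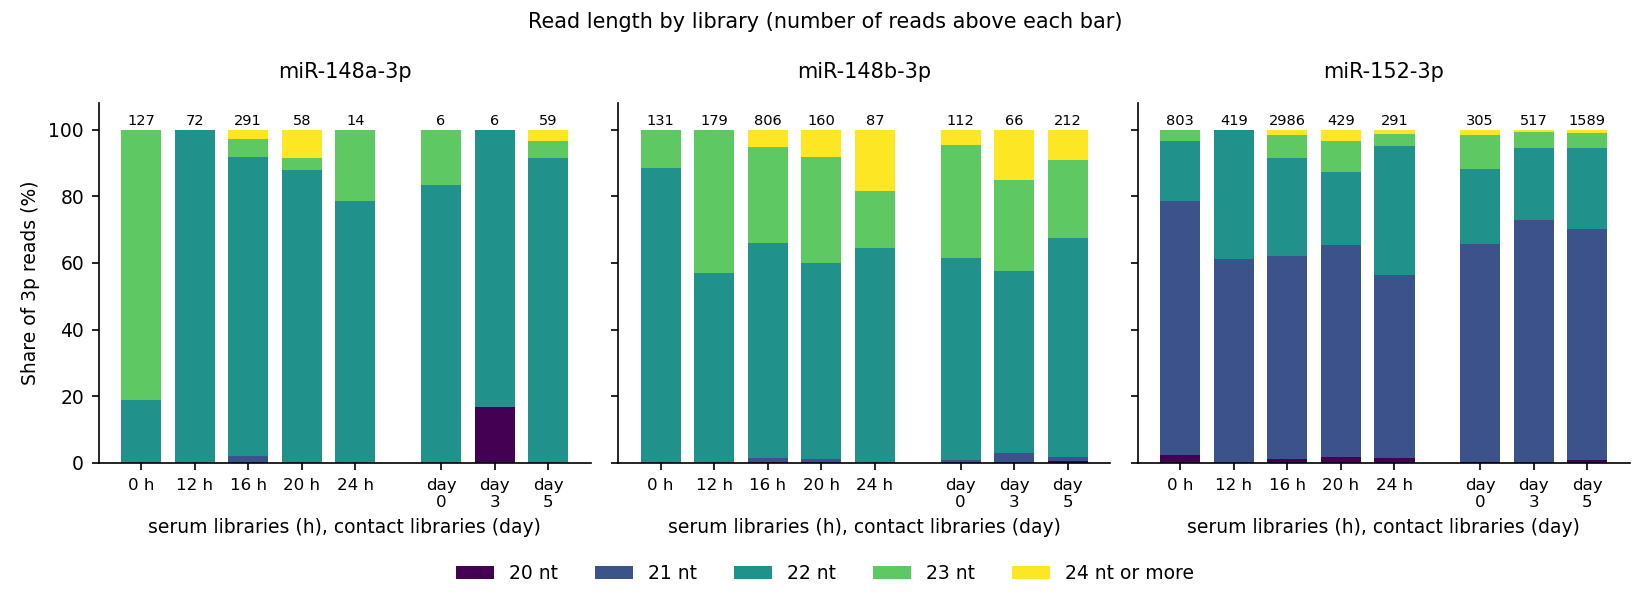
Share of 3p reads of each length in each library (percent, stacked; the number of reads stands above each bar; lengths of 24 nt or more are pooled). At serum 0 h, 81.1% of miR-148a-3p reads were 23 nt long and 76.3% of miR-152-3p reads were 21 nt long, while 22 nt was the commonest length of miR-148b-3p in all 8 libraries.

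The 3′ ends were then compared between the G0 libraries and the other 5 by exact 2-sided permutation over the 56 ways to place the 3 labels, where the smallest p is 0.0357, with adjustment over the 6 values tested. The mean length of miR-152-3p was 21.30 ± 0.07 nt in the G0 libraries (SD, n = 3) and 21.47 ± 0.04 nt in the others (SD, n = 5), a difference of -0.162 nt (exact permutation p = 0.0357, adjusted p = 0.214). The 3 G0 libraries, at 21.22, 21.33 and 21.36 nt, lay below the other 5, which ran from 21.39 to 21.49 nt. Of 73 miRNAs with at least 100 reads in every library, 6.85% had mean lengths that did not overlap between these groups, in either direction. Within the serum experiment the difference was -0.239 nt, and within the contact experiment it was -0.137 nt. Its untemplated share was 21.8% ± 4.6 in the G0 libraries and 33.1% ± 5.1 in the others (SD, n = 3 and 5), a difference of -11.3 percentage points (exact permutation p = 0.0714, adjusted p = 0.214). Within the serum experiment that difference was -17.0 points and within the contact experiment -1.89 points. The permutation takes no account of the experiment, and contact day 0, at 25.6%, lay below every released serum library. Most G0 libraries are contact libraries and most others are serum libraries, so the pooled differences mix the G0 label with the experiment. With 6 values adjusted together, 1 value at the smallest p reaches only 0.214, so this design could hardly pass the threshold. The 4 values of miR-148a-3p and miR-148b-3p gave exact permutation p-values of 0.393 to 0.714 before adjustment.

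miRNAs outside the family were taken from 2 lists chosen with earlier results of these data known. miR-130 and miR-301 have a seed that overlaps that of the family when moved by 1 base, so that a 6-base run is common to both, as 2 of them show with their own seed in capitals.
miR-130a-3p: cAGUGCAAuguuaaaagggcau
miR-301a-3p: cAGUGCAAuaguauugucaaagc
Of 5 names in this list, 4 were tested and 0 were called by edgeR, where 0.865% of all miRNAs tested were. The log2 fold change of G0 over the other libraries was 0.78 (SE 0.50) for miR-130a-3p and 1.70 (SE 0.77) for miR-301a-3p. For miR-130b-3p it was -0.16 (SE 0.58), although the plain means were 763 CPM in the G0 libraries and 375 CPM in the others, since the fit compares within experiments and the contact libraries held far more of it. miR-301b-3p had 0 reads at serum 0, 12, 20 and 24 h and 57.6 CPM at 16 h, with 65.2, 136 and 237 CPM on contact days 0, 3 and 5. Its fitted value of -0.87 (SE 2.88) runs against its means of 124 CPM in the G0 libraries and 24.6 CPM in the others, and rests on libraries at 0. The median of the list was 0.31 with that value and 0.78 without it, against -0.31 over all 347 miRNAs. miR-721 was not counted. miR-130a-3p was far more abundant than any family arm, with 5132 CPM at serum 0 h, 2705 to 7666 CPM in the released libraries and 15928, 37703 and 45082 CPM on contact days 0, 3 and 5. As a share of miRNA reads it was 0.899%, 3.05% and 2.51% on contact days 0, 3 and 5, so that on both scales days 3 and 5 were above day 0, but which of them was the higher depends on the scaling.

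The miR-29 family also represses DNA methyltransferases, DNMT3A and DNMT3B. Of its 3 members, 0 were called by edgeR, where 0.865% of all miRNAs tested were. The log2 fold change of G0 over the other libraries was -0.60 for miR-29a-3p (edgeR adjusted p = 0.576), 1.52 for miR-29b-3p (adjusted p = 0.423) and 1.57 for miR-29c-3p (adjusted p = 0.310). miR-29c-3p had 2078 CPM at serum 0 h, and 508, 1555, 1021 and 582 CPM at 12, 16, 20 and 24 h. It had 717, 2671 and 3200 CPM on contact days 0, 3 and 5. On this scale each of its G0 libraries was above all 5 others, as in either direction for 8.36% of all miRNAs tested. As a share of miRNA reads the groups overlapped, with 0.178% on contact day 5 and 0.182% at serum 16 h.

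The miRNAs with the most similar pattern were found by Pearson's r of log2(TMM CPM + 1) over the 8 libraries, after each experiment's mean was subtracted, among the 346 other miRNAs tested. The points share their libraries and depths, and r is given as a description. For miR-152-3p they were miR-379-5p (r = 0.990), miR-143-3p (r = 0.980) and miR-199a-3p (r = 0.972). For miR-148a-3p they were miR-199a-5p (r = 0.985), miR-381-3p (r = 0.973) and miR-337-3p (r = 0.904), with miR-152-3p at place 5 (r = 0.871). For miR-148b-3p they were miR-127-3p (r = 0.862), miR-183-5p (r = 0.795) and miR-411-5p (r = 0.769), and its family members came at places 18 (miR-148a-3p, r = 0.640) and 28 (miR-152-3p, r = 0.595). The miRNA most like miR-152-3p was thus no family member, and miR-148b-3p had the least similar companions of the 3 arms. For miR-148b-3p the order depended on the measure. Its Spearman's rho was 0.571 with miR-127-3p, 0.5 with miR-183-5p and 0.595 with miR-411-5p, against 0.548 with miR-148a-3p and 0.595 with miR-152-3p.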

How the data were processed

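The deposited files give, for each of 8 NIH-3T3 small-RNA libraries, the count of each distinct 36-nt read, with the 3′ adapter still present; the authors made no normalization that the files show. Per the labels, the cDNA libraries followed a published protocol. For the read caller, aligner and build, nothing is given in the sources used here. Members and lists were chosen with earlier results of these data known.

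The scripts used Python 3.11.15, with pandas 2.3.3, edlib 1.3.9.post1, matplotlib 3.10.9, scipy 1.17.1 and numpy 2.4.6. The adapter was removed where at least 6 bases were seen, with 1 mismatch per 8 bases allowed, marker oligonucleotides were removed, and inserts of 16 to 30 nt were kept. Arms came from the reads over 1174 GENCODE M21 hairpins, and for the family from RefSeq on GRCm38.p6. Of the 434 mature miRNAs, 336 carry RefSeq names and 48 come from more than 1 hairpin. A read was counted by its first 20 bases, whatever its 3′ end. An added base is one that the hairpin does not have there, so an added base that equals the next hairpin base cannot be seen.

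Counts were tested with edgeR 4.0.16 (R 4.3.3, TMM, robust quasi-likelihood, filter of 10 CPM in 3 libraries, experiment as a term, 5 residual degrees of freedom). The test was checked on simulated counts whose changes were larger than those estimated for the family. That check does not show whether changes as small as those of the family would be called. The SE is the log2 fold change over the square root of the test's F value. Shares have exact binomial (Clopper-Pearson) and ratios exact conditional binomial 95% intervals. A count of 0 is given an upper limit of 3 counts. Separate cultures are not stated in the labels, so p-values measure the spread between these libraries only. Named miRNAs were all 6 arms, every tested member of the lists, and the 3 miRNAs most like each 3p arm. Alternatives were DESeq2 1.42.0, other scalings, no filter, no experiment term, other counting rules and each library left out.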

Additional observations from a re-analysis of the deposited data

Results flagged for a closer look

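Among 26 groups of 4 or 5 libraries examined, 3 held a library far from the rest of its group, and chance alone flags about 1 in 20 such groups. miR-152-3p at serum 16 h, at 2867 CPM, stood above the other 4 libraries not labelled G0, which lay between 1487 and 1810 CPM. The mean length of miR-152-3p at serum 12 h, 21.389 nt, was below that of the other libraries not labelled G0, and likewise below that of the other released serum libraries. That library held 3 distinct inserts of this arm among 419 reads. Both length flags are the same value in overlapping groups, so the 3 flags are not independent and 1 in 20 is only a rough guide.

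The mean length of miR-148a-3p was 22.811 nt at serum 0 h, a difference of 0.683 nt from the mean of the released libraries, while the mean of contact days 3 and 5 differed from day 0 by -0.274 nt. The libraries thus moved in opposite directions in the experiments, but the difference was not tested, and contact days 0 and 3 had 6 reads each.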

How the results depend on the processing

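Over 87 results and 383 alternatives, 340 kept their direction and their side of the threshold or stayed within their interval, 37 moved and 6 reversed. Scaled by total miRNA reads, contact day 3 over day 0 was 0.439 for miR-148b-3p and 1.26 for miR-152-3p, and serum 0 h over 16 h for miR-152-3p was 1.01. With DESeq2 size factors, contact day 5 over day 0 for miR-152-3p was 3.02. Counted by 18 bases, contact day 3 over day 0 for miR-152-3p was 1.06. Where the whole insert had to match the hairpin, which drops every untemplated end, that ratio was 1.03. Serum 0 h over 12, 16 and 20 h was then 0.947, 0.661 and 0.744 for miR-148b-3p and 2.14, 1.06 and 1.48 for miR-152-3p. Shares of the family were then 16.8%, 10.3%, 12.4% and 4.11% for miR-148a-3p (serum 12, 16 and 20 h, contact day 5). They were 8.35% for miR-148b-3p (contact day 3) and 70.1% and 90.3% for miR-152-3p (serum 16 h, contact day 3). Counting any 5′ start, chosen after seeing the data like the other settings of the test between experiments, gave miR-152-5p 1.64% at serum 0 h. The cause was not tested in the other cases.

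The log2 fold change of miR-148a-3p was 0.20 without the experiment term. The G0 comparison called 3 miRNAs, against 8 without a filter, 1 without the experiment term, 1 with whole inserts, 14 with DESeq2, and, with 1 library left out, 0 without serum 0 h or 24 h, 1 without 20 h or contact day 5, 5 without contact day 3 and 12 without 16 h. With 1 library left out, log2 fold changes ran from 0.23 to 2.07 for miR-148a-3p, -1.13 to -0.06 for miR-148b-3p and 0.06 to 1.41 for miR-152-3p. Differences in mean length ran from -0.243 (without serum 0 h) to 0.329 nt for miR-148a-3p, -0.186 to 0.0295 nt (without serum 0 h) for miR-148b-3p and -0.188 to -0.121 nt for miR-152-3p. Differences in untemplated share ran from -1.12 (without contact day 5) to 1.42 points for miR-148a-3p, and that difference was -0.124 with inserts seen at least 2 times. They ran from -15.2 to -0.133 points for miR-148b-3p and -13.8 to -9.37 points for miR-152-3p. No paired analysis was possible because no condition has replicates. Depth limits miR-148a-3p on contact days 0 and 3 and all 5p arms.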
